A study of Mus musculus with 4 samples.

Results

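ZFP57 binding was examined at the paternally methylated intergenic control regions of imprinting: the H19 control region (Igf2/H19), the Rasgrf1 control region and the IG-DMR, together with a site inside the gene Rtl1. The members are those binding sites that overlap 1 of these 3 germline differentially methylated regions (DMRs) by at least 1 bp, plus the Rtl1 site. They number 4 of the 158 sites that the authors listed, which are peaks of mean percentile rank 99 or above and lower ranking ones that passed qPCR. The name holds for 3 of the 4: the Rtl1 site lies in a coding exon and in no germline DMR.

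ZFP57 was immunoprecipitated from mouse embryonic stem cells of 2 reciprocal crosses, kept in serum-free medium with LIF and inhibitors of MEK and GSK3, and the DNA was sequenced. The BC cells came from a C57BL/6J (BL6) mother and a Cast/EiJ (Cast) father. The CB cells came from a Cast/EiJ mother and a C57BL/6J father. Each cross is 1 cell line with 1 ChIP library and 1 input library, so no value below has a replicate, and a test on reads compares those libraries and not the crosses as such.

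ZFP57 is a zinc finger protein that recognises the letters TGCCGC when the CpG within them is methylated, and with its partner KAP1 it keeps the methylation of imprinting control regions through the erasure that follows fertilisation. Most germline DMRs are promoters methylated in the egg. The few methylated in sperm lie between genes and act at a distance, as the insulator between Igf2 and H19 does by binding CTCF on the unmethylated maternal copy.

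The 4 sites are printed from the + strand of mm9, because the control regions differ in how their motifs are laid out and the Rtl1 site has none. Capitals mark each TGCCGCN, on either strand, so that NGCGGCA is a match on the - strand. The IG-DMR site is chr12:110766557-110766680, the Igf2/H19 site chr7:149766143-149766280, the Rasgrf1 site chr9:89774546-89774740 and the Rtl1 site chr12:110831906-110832020.
IG-DMR: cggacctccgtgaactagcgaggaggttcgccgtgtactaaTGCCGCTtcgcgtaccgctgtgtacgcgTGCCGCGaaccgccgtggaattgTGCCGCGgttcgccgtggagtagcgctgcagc
Igf2/H19: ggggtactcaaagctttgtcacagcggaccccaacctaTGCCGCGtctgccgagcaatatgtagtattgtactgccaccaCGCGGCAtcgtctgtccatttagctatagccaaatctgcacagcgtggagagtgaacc
Rasgrf1: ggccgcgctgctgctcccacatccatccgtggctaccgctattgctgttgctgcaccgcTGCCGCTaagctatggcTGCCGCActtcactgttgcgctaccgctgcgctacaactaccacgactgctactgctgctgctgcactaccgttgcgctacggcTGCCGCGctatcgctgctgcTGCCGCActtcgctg
Rtl1: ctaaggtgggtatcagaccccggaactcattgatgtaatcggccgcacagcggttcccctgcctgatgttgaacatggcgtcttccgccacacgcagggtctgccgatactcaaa

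The IG-DMR, which governs the Dlk1 and Meg3 domain, had 3 motifs in its site of 124 bp. They start at bases 42, 70 and 93, counted from 1 at the left end, and all read on the + strand. Of the 3, 2 are TGCCGCG, with a purine as the seventh letter, and the first is TGCCGCT. The row of motifs went on to the left of the site, with 1 straddling its edge and 1 more 46 bp before that, so 5 lay within 100 bp of the site. Spacing in this row was 46, 46, 28 and 23 bp.

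The Igf2/H19 site, part of the insulator, had 2 motifs in 138 bp, both TGCCGCG. They face each other on opposite strands, 42 bp apart from start to start. The Rasgrf1 site had the most motifs of the 4 members, with 4 in 195 bp, though with 100 bp added on each side it had 5, as many as the IG-DMR. All 4 read on the + strand, starting at bases 60, 77, 161 and 181, and form a close left pair and a close right pair 84 bp apart. The IG-DMR and Rasgrf1 sites thus share a one-way layout that Igf2/H19 lacks.

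**Figure D1:**
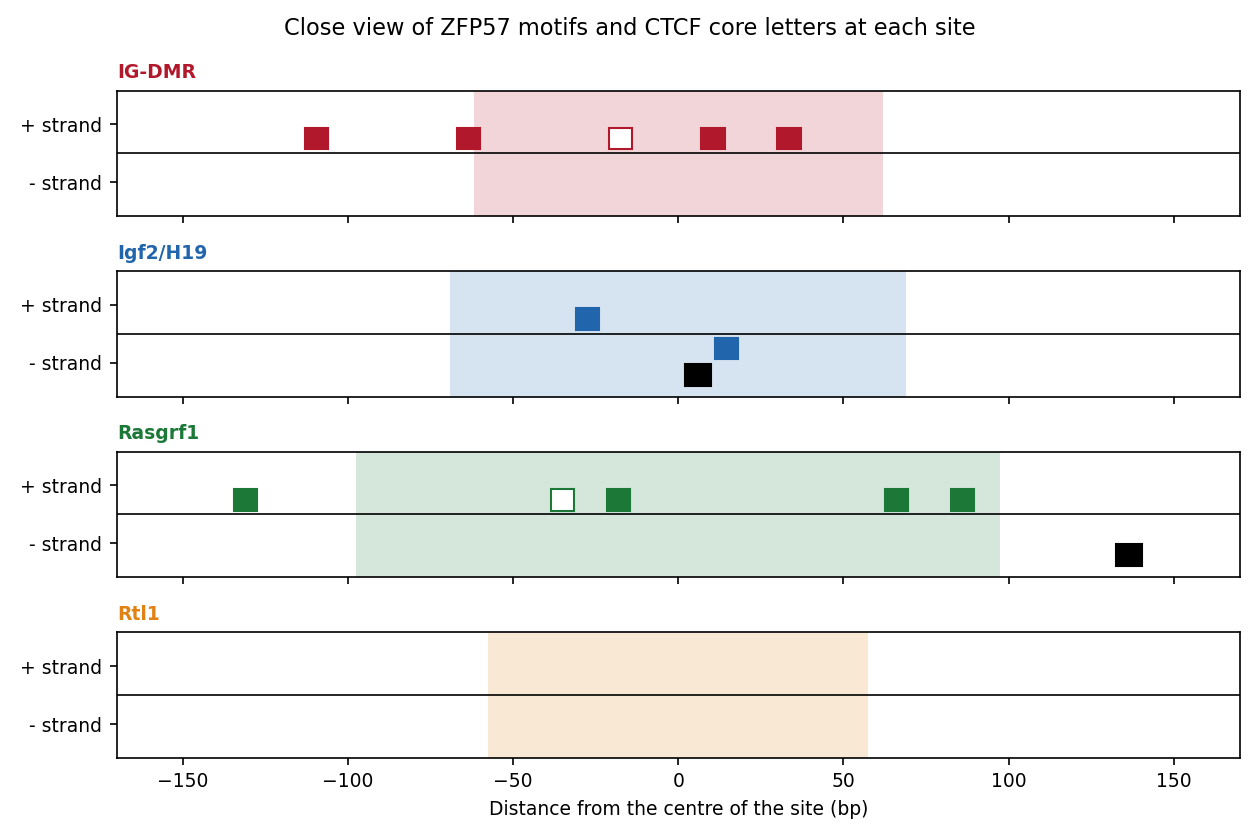
Motif matches along each site (shaded) by distance in bp from its centre, with TGCCGCN as coloured boxes (filled for a purine seventh base, open for a pyrimidine), GGNGGCAG as black boxes, and the + strand above the line. The coloured IG-DMR and Rasgrf1 boxes all lie on the + strand, the Igf2/H19 site has 1 coloured box on each strand with a black box beside the lower one, and the Rtl1 site has none.

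Rtl1 is a retrotransposon-derived gene needed in the placenta, and its site had 0 motifs in 115 bp and 0 within 100 bp on either side. The nearest TGCCGCN lay 1048 bp to the left and 19047 bp to the right. Among all 158 sites, 31 (19.6%) had no motif and 25 (15.8%) had none with 100 bp added to each side, so the Rtl1 site belongs to a minority of the list.

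A motif match describes letters and is neither a binding site nor a cause. By their methods the authors set aside peaks without binding motifs, although 31 listed sites have no TGCCGCN on mm9, so the share of motifs in the list is in part their selection. At least 1 TGCCGCN was in 127 of the 158 sites (80.4%), but in 0.74% of genome windows as long as the IG-DMR site, 0.825% of windows as long as the Igf2/H19 site and 1.17% of windows as long as the Rasgrf1 site. As many motifs as the IG-DMR site were held by 268 of 20610729 windows of its length. The Igf2/H19 number was reached in 3425 of 18519722 windows. The Rasgrf1 number was reached in 102 of 13106081 windows. Within the list such density is less rare: 67 sites (42.4%) had at least 2 motifs, 23 (14.6%) at least 3 and 7 (4.43%) at least 4. Among the 36 sites in germline DMRs, 12 (33.3%) had at least 3.

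The letters GGNGGCAG, taken here as the core of a CTCF site, were searched on both strands as well. With C as their N they contain GCGGCA, the complement of TGCCGC, so the searches are not independent. Inside the sites the core occurred at Igf2/H19 and at none of the other 3 members, while 17 of 158 sites (10.8%) and 3.14% of windows as long as the Igf2/H19 site had it. The longer form, CGCGN directly before GGNGGCAG, was in 1 of 158 sites, the Igf2/H19 site, and in 153 of the windows of its length.

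At Igf2/H19 the ZFP57 and CTCF letters run into each other. The motif on the - strand shares its last 4 bases with the start of the longer CTCF form, at chr7:149766214-149766229 on mm9. The same 16 letters recur on the - strand at chr7:149767939-149767954, which starts 1796 bp from the start of the site and is not in any listed site. The run is printed from the - strand with the shared bases in capitals, because both copies are identical.
Igf2/H19 overlap: tgcCGCGtggtggcag

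The Igf2/H19 DMR as a whole held 8 matches to GGNGGCAG, against 4 in the IG-DMR and 2 in the Rasgrf1 DMR. Of the 8, 3 have the longer form. Of these 3, 2 share bases with a TGCCGCN and 1 lies in the bound site. CTCF binding was not measured in these cells, so the counts describe sequence.

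**Figure D2:**
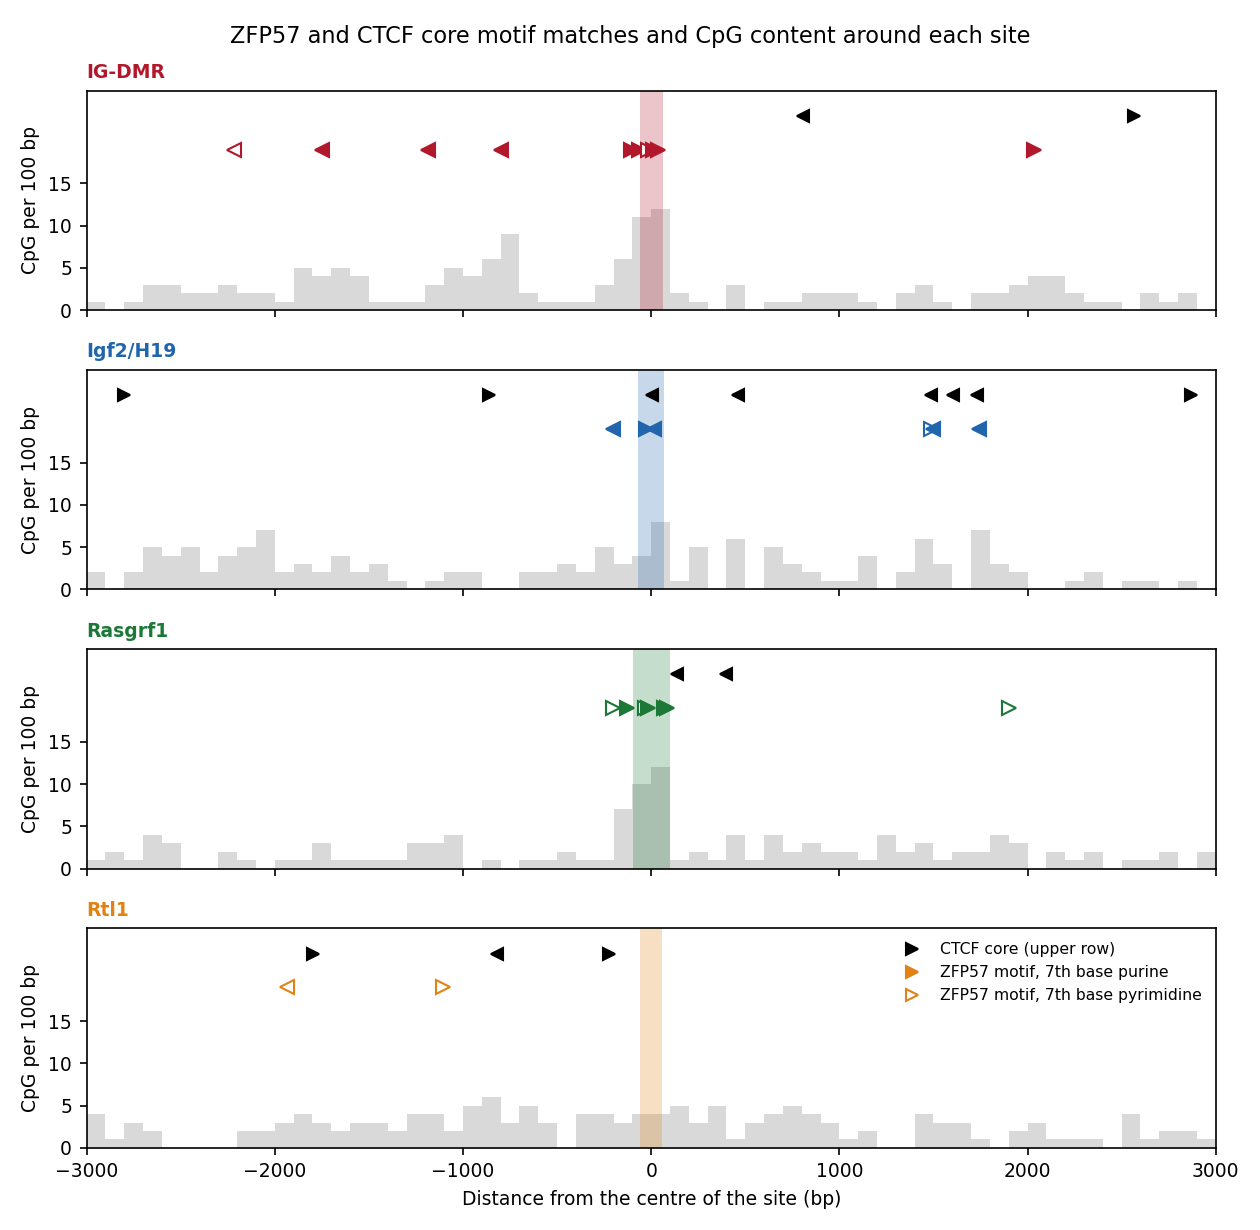
Motif matches by distance in bp from the centre of each site, drawn as triangles that point along their strand (upper row GGNGGCAG, lower row TGCCGCN, filled for a purine seventh base), above grey bars of CpG per 100 bp. The shaded sites of IG-DMR and Rasgrf1 coincide with a peak of CpG, and Igf2/H19 has a second cluster of both motifs to the right of its site.

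Each DMR has more motifs than its site. The IG-DMR held 10 TGCCGCN with 7 outside the site, the Igf2/H19 DMR 6 with 4 outside and the Rasgrf1 DMR 9 with 5 outside. In sum 9 of 25 motifs (36.0%) lay in a bound site. In the 19 maternally methylated germline DMRs with a listed site, 62 of 106 motifs (58.5%) did. By median, motifs were also sparser in the 3 members' DMRs, at 0.962 per kb against 2.38 per kb, but the groups overlapped. Of the maternally methylated DMRs with a listed site, Zrsr1 (0.768) and Cdh15 (0.805) were sparser than all 3, whose lowest was Igf2/H19 (0.827). Peg10 (1.09) was sparser than Rasgrf1 (1.12), the highest of the 3, and the remaining ones were denser than Rasgrf1. These are counts over DMRs of different lengths and drawn borders, and no test was made of them.

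The bound sites of the 3 control regions are CpG-rich spots within CpG-poor DMRs. Each TGCCGCN holds a CpG, so motifs and CpG are not independent counts. Whether sites in other germline DMRs stand out from their own DMR in the same way was not examined. CpG numbered 1.90, 1.45 and 1.47 per 100 bp over the whole IG-DMR, Igf2/H19 and Rasgrf1 DMRs. The median of the maternally methylated DMRs was 5.07, with a range of 1.78 (Snrpn) to 10.7 (Fkbp6). Over the 36 sites in germline DMRs, these 3 among them, the median was 8.19. The IG-DMR site held 20 CpG, or 16.1 per 100 bp, and 1 of the 158 sites was richer. The Rasgrf1 site held 19, or 9.74 per 100 bp. The Igf2/H19 site held 8, or 5.80 per 100 bp, and 85 sites were richer, so it was the plainest of the 3. Even so, 97.5% of the windows of its length in its own DMR had fewer CpG, against 99.7% for the IG-DMR and 98.7% for Rasgrf1. The Rtl1 site had 8 CpG, or 6.96 per 100 bp.

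The authors' annotation puts 39 of 158 sites in distal intergenic sequence. Of the 36 sites in germline DMRs 3 are so placed, and they are the 3 control regions. On mm9 with GENCODE M1 genes, the IG-DMR site lies 12.6 kb to the left of the start of Meg3 (ENSMUSG00000021268.10), a noncoding RNA of the maternal chromosome. It lies 75.6 kb to the right of the start of Dlk1 (ENSMUSG00000040856.11), whose product acts in the Notch pathway. The Igf2/H19 site is much nearer to a target, 2.16 kb from the start of H19 (ENSMUSG00000000031.9), a maternally expressed noncoding RNA. Igf2 (ENSMUSG00000048583.9), a paternally expressed growth factor gene, starts 86.5 kb from it on the other side. Rasgrf1 (ENSMUSG00000032356.6), which encodes a guanine nucleotide exchange factor of neurons, starts 30.0 kb to the right of its control region's site.

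The Rtl1 site lies within Rtl1 (ENSMUSG00000085925.2), which reads on the - strand. It is inside the single coding segment, 1593 bp from the start codon and 3524 bp from the other end. Listed as a 3' exon site, it is thus in coding sequence. On the other strand Rtl1 holds 6 miRNA genes, made from the maternal chromosome, and the site falls between Mir127, 768 bp away, and Mir434, 696 bp away. Between the IG-DMR and Rtl1 sites lie 65225 bp with 6 TGCCGCN and no other listed site. Igf2/H19 and Rasgrf1 stand more alone: the nearest other listed site was 715 kb from Igf2/H19, and none lay within 1 Mb of Rasgrf1.

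**Figure D3:**
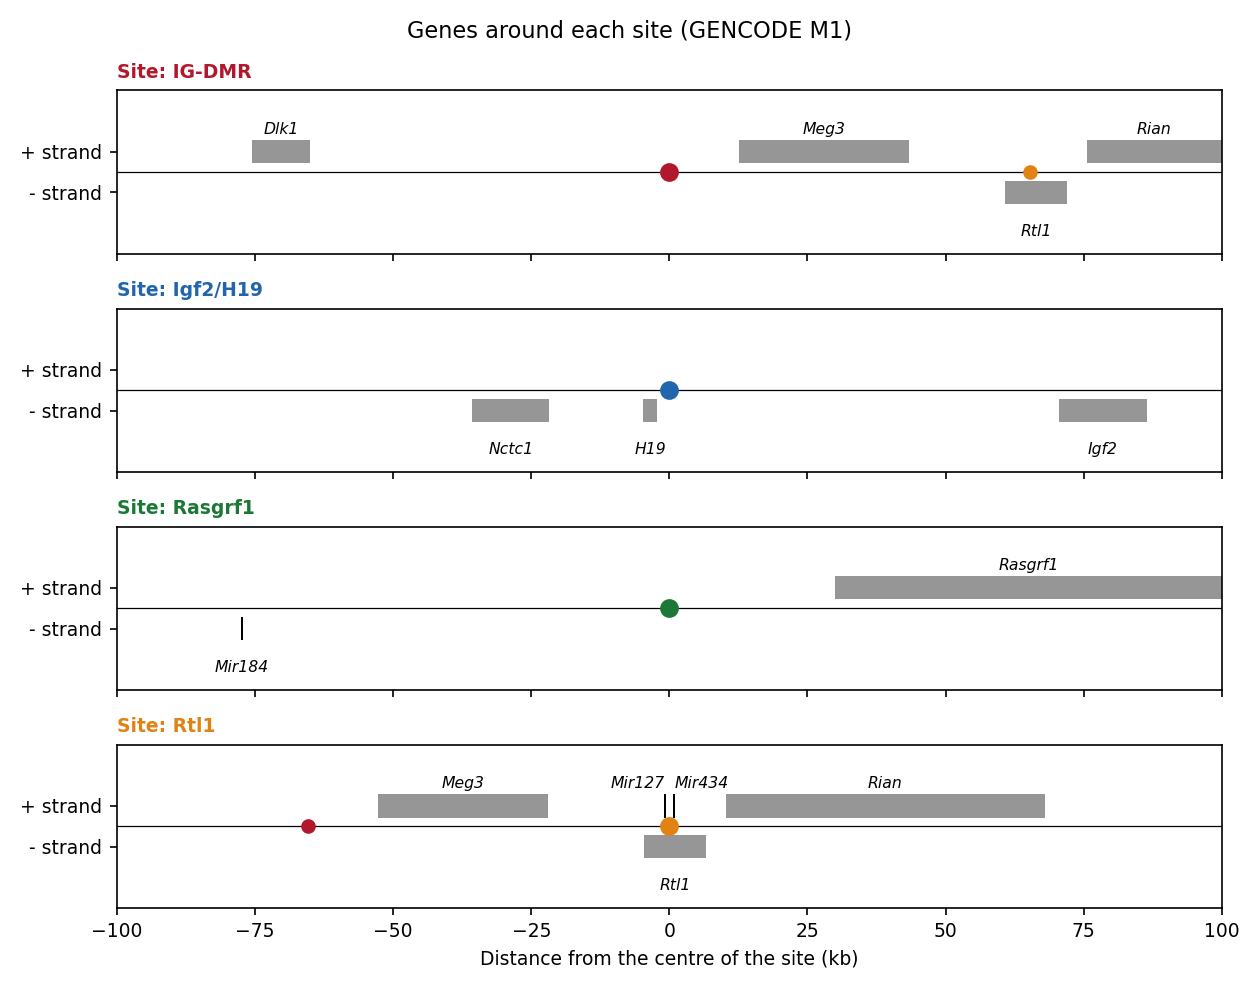
Selected genes within 100 kb of each site by distance in kb from the site's centre (large dot at 0; small dots mark another member), with + strand genes above the line, - strand genes below it and miRNA genes as thin ticks. The IG-DMR and Rasgrf1 sites lie between genes, the Igf2/H19 site lies close to H19, and the Rtl1 site falls inside Rtl1.

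Read density, a score normalised by the authors for site length and aligned reads, separated the members into strong and weak sites. The Rasgrf1 site reached 227 in the BC library and 124 in the CB library. The IG-DMR site had 210 in BC and the same 124 in CB. Both were far above the medians of all 158 sites, 107 in BC and 38.5 in CB, and shared place 3 in CB. In BC the Rasgrf1 site was 15th and the IG-DMR site shared place 20. Among the 36 sites in germline DMRs, with medians of 170.5 in BC and 50 in CB, they were 7th and 10th in BC. The Igf2/H19 site had 49 in BC and 7 in CB. It was 150th of 158 in BC and lowest of all 158 in CB. The Rtl1 site had 24 in both crosses, 157th in BC and 124th in CB, so the weaker of the other two depended on the cross.

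Most sites were denser in BC, and the members stood on both sides of that trend. The median BC to CB ratio over all sites was 2.79, with quartiles of 1.97 and 3.69. The IG-DMR ratio was 1.69 and the Rasgrf1 ratio 1.83, both below the lower quartile. The Igf2/H19 ratio was 7, the 6th highest of 158, and it fell to 4.5 with 5 added to each density. The Rtl1 ratio was 1, and Rtl1 was the single site of equal density, where 5 sites were denser in CB. With 1 library per cross, no error can be given for these ratios.

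**Figure D4:**
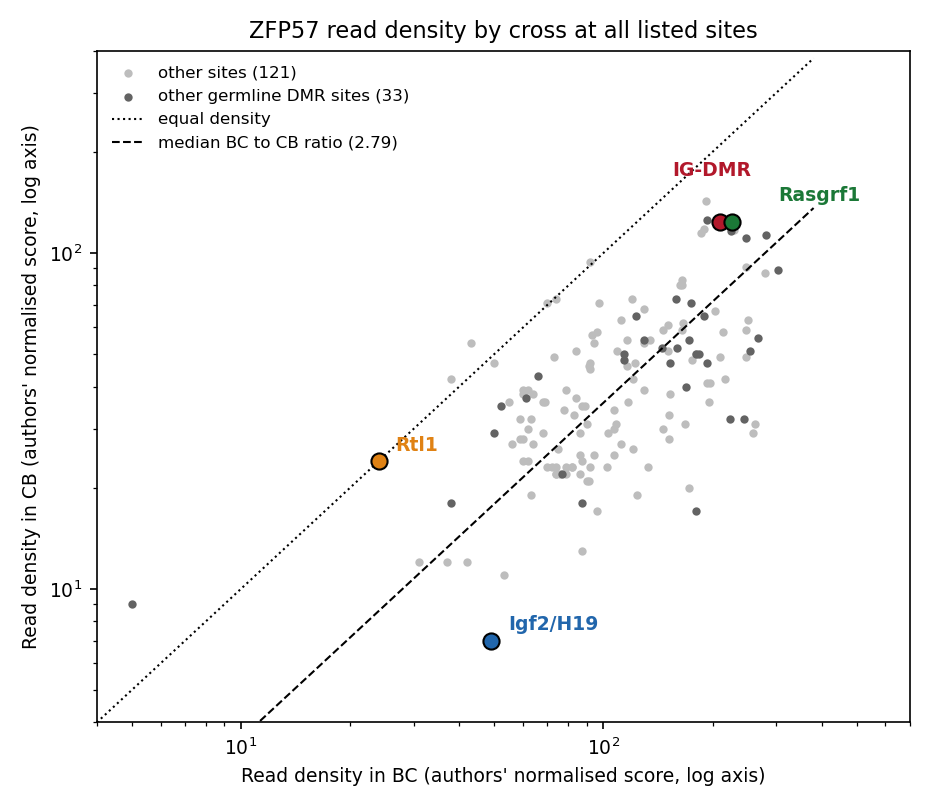
Read density in BC (horizontal, log axis) and CB (vertical, log axis), with 1 point for each of the 158 sites, members in colour and other germline DMR sites in dark grey. IG-DMR and Rasgrf1 lie at the top right, Igf2/H19 is lowest in CB, and Rtl1 sits on the line of equal density.

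Percentile ranks place each density among the authors' candidate peaks in the same library. They compare a site with other called peaks and not with background. The IG-DMR site ranked 99.97 in BC and 100 in CB. The Rasgrf1 site ranked 99.97 and 99.99, so both were at the top of either library. The Igf2/H19 site ranked 98.22 in BC and 42.31 in CB, and the gap of 55.91 was the largest in that direction of the 158 sites. The Rtl1 site went the other way, from 85.96 in BC to 99 in CB. A mean rank below 99 was found at 17 of 158 sites, Igf2/H19 (70.3) and Rtl1 (92.5) among them, and such sites are in the list because the authors tested them by qPCR. Among the 31 sites without a motif, whose median densities were 83 in BC and 31 in CB, Rtl1 was lowest in BC, and in CB 22 of the 31, Rtl1 counted, were at least as dense as Rtl1.

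Repeated sequence bears on where reads can align. Every run of 40 bases in the 4 sites was unique in mm9 by exact match, as at 135 of the 158 sites. Near matches that differ by 1 base were not searched. Reads were kept by the authors when they aligned once, with at most 1 mismatch.

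From the deposited reads, parental origin could be given at the IG-DMR alone of the 4 members. Its site held 2 SNPs by the deposited count, whereas Igf2/H19, Rasgrf1 and Rtl1 held 0 and had no allele-specific read. In all, 42 of 158 sites had no such read, and for each of them the deposited table lists 0 SNPs or none found. They include 8 of the 36 germline DMR sites.

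In BC, 49 reads at the IG-DMR carried the maternal BL6 base and 91 the paternal Cast base. In CB, 82 carried the paternal BL6 base and 1 the maternal Cast base. The paternal share was 65.0% of 140 reads in BC (95% Wilson interval 56.8 to 72.4%). In CB it was 98.8% of 83 reads (93.5 to 99.8%). Paternal reads were in the majority in both crosses, and the intervals, which cover counting error only because PCR copies are not independent molecules, do not overlap.

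A call of parental origin was a p under 0.0001 in a two-sided Fisher's exact test of BL6 and Cast reads by cross, no larger than the p of the same reads sorted by parent. It was met at 26 of 116 sites with reads (22.4%), and the paternal allele was the bound one at 1 of 116 (0.862%), the IG-DMR. Its Fisher's exact p was 1.17e-24 (two-sided), the 12th smallest of the 26, with 1.13e-23 after Benjamini-Hochberg adjustment over the 116 sites. With a limit of 0.05 on adjusted p in place of the raw threshold, 3 sites were paternal. The added ones, named after their values were seen, are peak97264 in distal intergenic chromosome 9 and peak66692 in an exon of Agrn. Their adjusted Fisher's exact p were 0.0368 and 0.00178 (two-sided), and neither met the raw threshold. Maternal and paternal reads numbered 93 and 129 at peak97264, and 56 and 96 at peak66692. At the IG-DMR they numbered 50 and 173, so the added sites were nearer to balance.

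The paternal share also differed between the libraries. When reads were sorted by parent and set against the cross, a two-sided Fisher's exact test gave p = 8.68e-11 at the IG-DMR, or 5.92e-10 adjusted over 116 sites. A p under 0.0001 in that test was found at 27 of 116 sites (23.3%). Of the 26 sites of parental origin, the IG-DMR had the smallest p in it. The maternal share was higher in BC, where the mother is BL6, than in CB, where the mother is Cast.

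The 23 autosomal sites of maternal origin give reads of the less bound parent elsewhere in the same libraries. They were called on these same reads, by a rule that favours low shares, so the comparison was also made with all 27 sites with reads in maternally methylated germline DMRs, whatever their call. These are the 23 and 4 more, of which Cdh15 and Fkbp6, named after their values were seen, hold nearly all the added reads, with paternal shares of 47.2% and 52.7% in BC and 57.1% and 54.3% in CB. In BC, 117 of 1973 reads at the 23 sites were paternal (5.93%, 95% Wilson interval 4.97 to 7.06%). At the IG-DMR 49 of 140 were maternal (35.0%, 27.6 to 43.2%). The two-sided Fisher's exact p was 3.86e-22, or 7.71e-22 adjusted over both crosses. The highest of the 23 sites was Inpp5f_v2 at 17% and the median 4.69%, so the IG-DMR was above all of them in BC, though below Cdh15 and Fkbp6. Against the 27 sites chosen by position, where 564 of 2892 reads (19.5%) were paternal, the adjusted two-sided Fisher's exact p was 3.26e-05. Like the p against the 23 sites, it pools reads and ignores the spread between sites. The 35.0% at the IG-DMR lies within the range of the 27, so this p does not set it apart from them. Without Cdh15 and Fkbp6 the share at the remaining 25 was 5.85% and the adjusted exact p 4.51e-22, but leaving them out selects for low shares again.

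In CB the order was the reverse. Of 1221 reads at the 23 sites, 84 were paternal (6.88%, 95% Wilson interval 5.59 to 8.44%). At the IG-DMR 1 of 83 was maternal (1.20%, 0.213 to 6.51%). The two-sided Fisher's exact p was 0.0376, raw and adjusted. It covers counting error only, on reads pooled over sites whose own shares ran from 0 to 40%. Without Grb10, the highest site at 40% (6 of 15 reads), the share at the other sites was 6.47% and the adjusted exact p 0.0557. With all read counts halved, the adjusted exact p was 0.162. Against the 27 sites, where 309 of 1631 reads (18.9%) were paternal, it was 2.63e-06, but that value came from Cdh15 and Fkbp6. Without them the share was 6.82% and the adjusted exact p 0.0377, so the CB difference is a weak one. The IG-DMR lay below 19 of the 23 sites, and 4 sites had no paternal read.

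**Figure D5:**
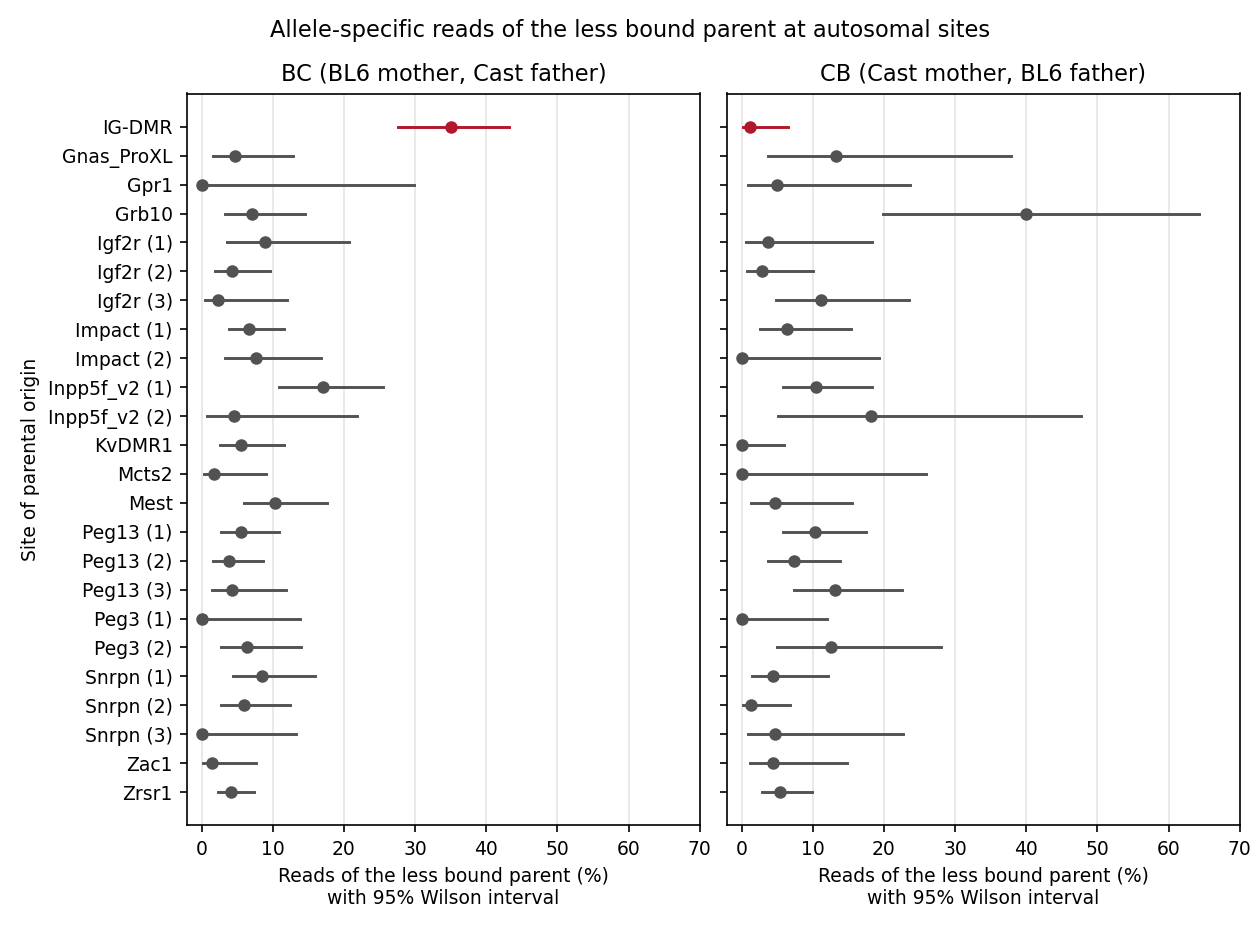
Percent of reads from the less bound parent in each cross, with the IG-DMR in red, the 23 autosomal maternal sites in grey, and lines for 95% Wilson intervals. The IG-DMR point is above all 23 points in BC and below 19 of them in CB.

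The study's pyrosequencing primers, matched here to mm9, show where SNPs were assayed in the control regions; the readings themselves are not among the deposited values. At the IG-DMR the assayed SNP lay 118 bp to the left of the site and 67 bp from the nearest TGCCGCN. At Igf2/H19 it lay 1477 bp to the right of the site but 47 bp from the nearest motif, in the second cluster. At Rasgrf1 it lay inside the site, as G29T (BL6 base, position from 1 at the left end of the printed sequence, Cast base), within an amplicon of 78 bp that holds 2 of the 4 motifs. The Rasgrf1 site thus has an assayed strain difference although its deposited SNP count is 0, and no allele-specific read was listed there.

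A further germline DMR, at Zdbf2, is methylated in sperm as well. It held 0 listed sites and 2 motifs, or 0.204 per kb, the sparsest of the 4 paternally methylated DMRs. A listed site was present in 22 of the 24 germline DMRs examined, so Zdbf2 belongs to the few without.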

How the data were processed

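The authors aligned reads to mm9 and a Cast genome, called peaks in each ChIP with its input as control and kept those shared by both crosses. Of candidate peaks above a minimum density, they listed the top 1% by mean percentile rank plus lower ones that passed qPCR. By their account, motif-free peaks and those in simple repeats were set aside, although 31 listed sites have no TGCCGCN in mm9. The motif, density and rank values of the list rest on that selection. From the deposited table, read density was used as a score, normalised by the authors and rounded. Percentile ranks are a percent among the authors' candidate peaks. Allele-specific reads are deposited as a raw count per strain and cross. At 116 sites they numbered 10541 in BC (6595 BL6 and 3946 Cast) and 5904 in CB (2797 BL6 and 3107 Cast). Numbers of SNPs and motifs are those deposited by the authors, and motifs were recounted on mm9. The columns of the authors' p-values and of their call were not used, and every test was recomputed. Named are the 4 members, the nearest gene starts, the target genes and sites at the ends of a range. Members and lists were chosen with earlier results of these data known. Alternatives of threshold, halved counts, site lists and added density were tried. Python 3.11, numpy 2.4.6, scipy 1.17.1, pysam 0.24.0 and matplotlib 3.10.9 were used, and the tests were tried on simulated data.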

Additional observations from a re-analysis of the deposited data

Results flagged for a closer look

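The paternal share at the IG-DMR differed between the 2 ChIP libraries, at 65.0% in BC and 98.8% in CB. It is listed here because a test of that difference itself, a two-sided Fisher's exact test with reads sorted by parent and set against the cross, gave p = 8.68e-11. That p covers counting error only and compares 1 library of each cross, not the crosses. The cause of the difference was not tested. The library, the cell line, the direction of the cross and the strain of each parental allele cannot be told apart.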

How the results depend on the processing

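Of 44 alternative values, 34 kept their direction and their side of the threshold or, for counts and ratios, stayed within a set tolerance. That tolerance is not a measure of counting error. Of the rest, 0 reversed, 2 lost the call and 8 moved. The parental-origin p at the IG-DMR ranged from 1.17e-24 to 2.41e-13 and the strain-origin p up to 2.42e-06. For maternal reads at the IG-DMR, the BC comparison stayed past the threshold under all 6 alternatives (adjusted p up to 3.26e-05). However, 5 of them use sites selected for low shares on these same reads, and the set chosen by position gave the highest p. Each p pools reads over sites and ignores the spread between them, and the IG-DMR share lies within the range of the set chosen by position. The CB comparison lost the call with halved counts (0.162) and without Grb10 (0.0557), over a range of 2.63e-06 to 0.162: fewer reads remain under the first, and the second leaves out the site with the most paternal reads by share. The 27 sites in maternally methylated DMRs, a set added after seeing the data, gave adjusted p of 3.26e-05 in BC and 2.63e-06 in CB, values that came from Cdh15 and Fkbp6: without them, also a choice after seeing the data, they were 4.51e-22 and 0.0377. Benjamini-Hochberg calls, chosen as an alternative for the site counts after seeing the data, gave 3 paternal sites in place of 1. The added ones were nearer to balance in maternal and paternal reads than the IG-DMR. With 5 added to each density, the ratio was 1.67 at IG-DMR, 4.5 at Igf2/H19 and 1.80 at Rasgrf1. Widening the sites by 100 bp gave 5 motifs at IG-DMR and 5 at Rasgrf1, a tie. The other 3 that moved are places among fewer sites.

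No paired analysis was possible because each cross has 1 ChIP library. The number of reads at the site limits the CB value at the IG-DMR, where 1 read of 83 is maternal. At Igf2/H19, Rasgrf1 and Rtl1 no allele-specific read was listed, so no share is given.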
